A study of Mus musculus with 26 samples.

Results

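Striatal RNA of wild-type (WT) mice was compared between 6 and 18 months of age, the longest span of age in the series. The comparison takes every WT array with an age label of 6 or 18, which is 7 of the 26 arrays of the series. There were 4 arrays at 6 months (2 females, F1 and F2, and 2 males, M1 and M2) and 3 arrays at 18 months (1 female, F1, and 2 males, M1 and M2). The WT mice were bred in house on a C57BL6/J background alongside heterozygous YAC128 mice, a Huntington's disease model whose transgene is human HTT with a lengthened CAG tract, and no group received a treatment. The sample labels count age in weeks, whereas the study's methods give the same numbers in months, and months are used throughout. RNA came from micro-dissected striata of mice killed at the same point of the light phase and was hybridised to GeneChip gene arrays, which read each gene with 1 or more groups of probes (probesets). The 5 WT arrays of 12 months serve only to place the level between both ages. Mice of different ages were separate animals. The study says that samples of equal age were put on the same chip, without saying whether this means a common array run. No label gives the run, so age and array run cannot be told apart here.

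The striatum is built mainly of GABAergic medium spiny neurons, which receive cortical and thalamic input and carry either D1 or D2 dopamine receptors. Among them lie interneurons, astrocytes, microglia, oligodendrocytes and the myelinated fibre bundles that cross the region. With age, brain glia are known to take on reactive states, in which astrocytes make more intermediate filament and microglia more lysosomal and complement proteins, while the formation of new cells from the neighbouring subventricular zone slows.

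Every value is a log2 expression level, and every difference is a log2 fold change at 18 relative to 6 months with its standard error (SE) from limma. With 3 arrays against 4, p-values of single genes are given only after adjustment. Of 34760 probesets, 1814 (5.22%) had p under 0.05, of which 1326 were higher (3.81%) and 488 lower (1.4%) at 18 months. The total share is close to what a threshold of 0.05 gives on average without any age difference. No probeset (0%) passed at an adjusted p under 0.05, and the smallest adjusted p was 0.586, so no single gene below is a call after correction. Genes are called higher or lower below where their unadjusted p was under 0.05, and the 115 of them that were examined singly had adjusted p between 0.586 and 0.932. When the spread was estimated over all 26 arrays, 6 probesets passed at an adjusted p under 0.05, with adjusted p between 0.0147 and 0.0465. All 6 were higher at 18 months. They were those of Abca8a, Ccl3, C4b and A530053G22Rik, 1 shared by several Pramel family genes and 1 with no gene symbol. The share of higher among the probesets with p under 0.05 was 73.1%, and it was 53.8% when the 7 arrays were quantile normalized again. The median change over all probesets was 0.01 before and -0.01 after that step. Ranked by level, the dimmest 8690 probesets held 627 of the 1326 higher ones and the brightest 8690 held 147. The labelled sex was borne out in all 7 arrays, with Xist between 12.15 and 12.41 in females and between 6.19 and 6.58 in males.

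**Figure D1:**
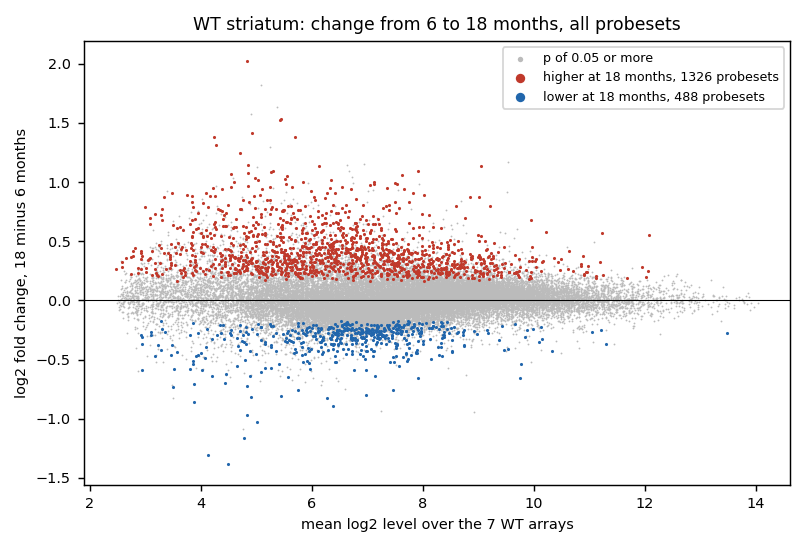
Log2 fold change (18 minus 6 months) of each of 34760 probesets against its mean log2 level over the 7 WT arrays. Red points are the 1326 probesets higher and blue points the 488 lower at an unadjusted p under 0.05, with no probeset passing after adjustment, and many red points lie at low levels.

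Genes were grouped into lists by cell type or pathway, with the brightest probeset of each gene. Over all 19937 genes, 2.43% were higher and 1.03% lower at p under 0.05, the median change was 0.0037, and the groups did not overlap (all 18-month arrays above or all below those of 6 months) in 3.37% upwards and 1.94% downwards. These shares are what the counts of each list are read against. The lists with the highest medians were protocadherins, mature oligodendrocyte and myelin, activated microglia and circadian clock genes, and the list with the lowest median was that of immediate early genes. Leaving out 1 array moved the list medians by at most 0.18 (cortical projection neurons), and 15 of 37 lists then changed sign at least once, all with medians between -0.09 and 0.04.

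**Figure D2:**
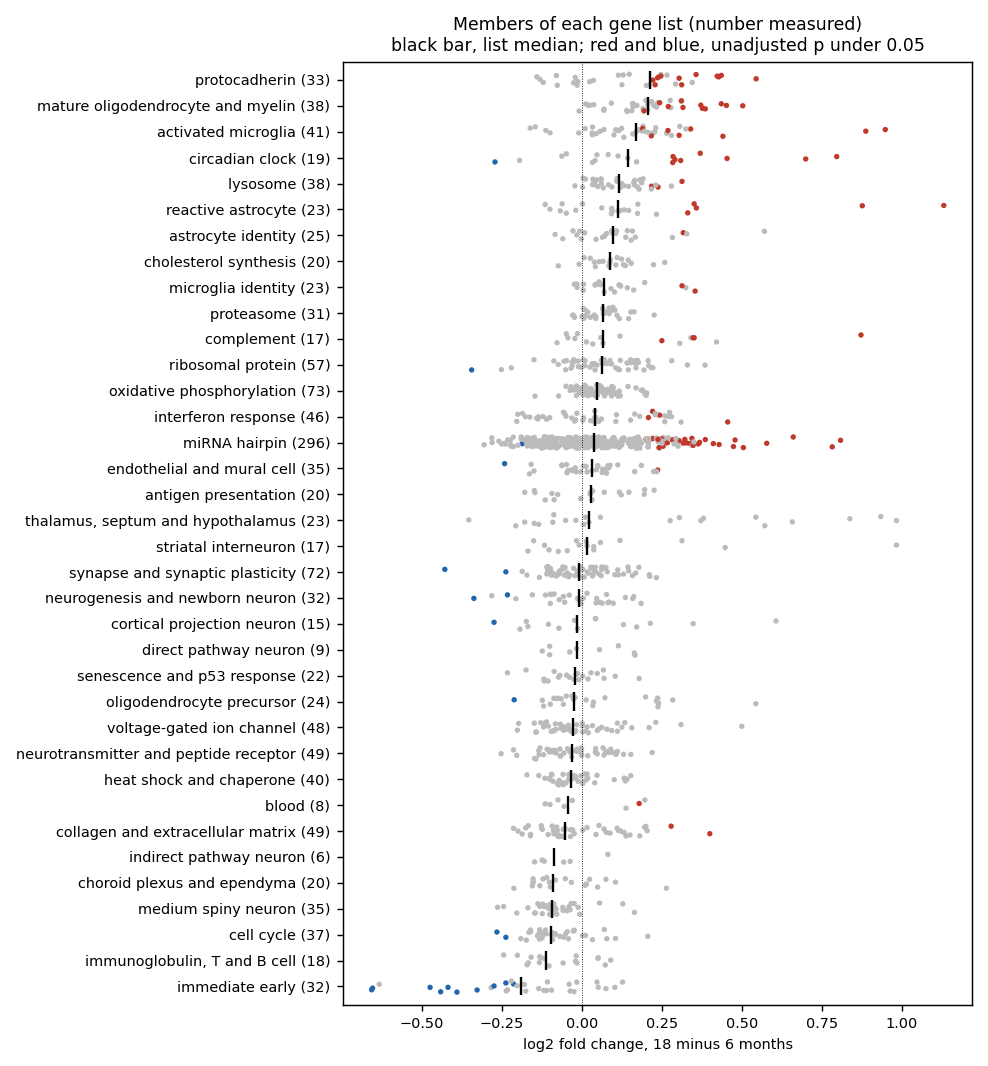
Log2 fold change of every measured member of each gene list, with the number measured in brackets, the list median as a black bar, and members at an unadjusted p under 0.05 in red (higher) or blue (lower). The sex check genes and the chemosensory families are not plotted, and among the lists plotted the medians run from -0.19 for immediate early genes to 0.21 for protocadherins.

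The largest change among reactive astrocyte genes was that of Gfap, the intermediate filament protein of astrocytes. Its values at 6 months were 8.60, 8.21, 8.93 and 8.47 in F1, F2, M1 and M2, and at 18 months 10.21, 9.47 and 9.37 in F1, M1 and M2. All 18-month arrays lay above all 6-month arrays. The means were 8.55 ± 0.30 (SD, n = 4) and 9.68 ± 0.46 (SD, n = 3), a log2 fold change of 1.13 (SE 0.23). In whole tissue, more cells of a type and more RNA per cell cannot be told apart. Serpina3n, a secreted protease inhibitor of reactive astrocytes, was 8.79, 8.21, 8.33 and 8.55 at 6 months and 9.72, 8.93 and 9.40 at 18 months, again without overlap (0.88, SE 0.20). Vimentin (Vim), a second intermediate filament protein, and Osmr, the oncostatin M receptor, were higher by 0.36 (SE 0.10) and 0.33 (SE 0.075). For these 4 genes, leaving out any 1 of the 7 arrays kept p under 0.05. Of the 23 reactive astrocyte genes measured, 5 were higher and 0 lower, and the median was 0.11. The fifth was Serping1, given with the complement genes. Only Aqp4, the water channel of astrocyte endfeet, was higher among 25 astrocyte identity genes (0.32, SE 0.13), its arrays overlapped, and p stayed under 0.05 in 2 of the 7 fits that left out 1 array. That list had a median of 0.10 with 19 positive, and 0.06 without 6-month M2, while 3 of its genes were higher without 6-month F1.

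Among 17 complement genes, 4 were higher and 0 lower, with a median of 0.07, which was 0.15 without 18-month M2. C4b, an early component of the cascade, was 8.45, 8.59, 8.94 and 8.59 at 6 months and 9.86, 9.59 and 9.10 at 18 months. The 18-month M2 array was the lowest of its age and still lay above every 6-month array (0.87, SE 0.19). C4a, whose sequence is close to that of C4b so that their probes may share signal, was higher by 0.35 (SE 0.13). The receptor C3ar1 was higher by 0.25 (SE 0.09) and the inhibitor Serping1 by 0.35 (SE 0.13). The count fell to 1 without 18-month F1 or 6-month M2 and to 2 without 18-month M1 or 6-month F2, and was 7 with the replicate number as a block. The block fit also left out 6-month F2, here and below.

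Of the 2 microglial lists, that of activation had the higher median. Ccl3, a chemokine of activated microglia, was 6.73, 6.81, 7.27 and 6.95 at 6 months and 8.11, 8.02 and 7.53 at 18 months (0.95, SE 0.17). Lyz2, a lysozyme of myeloid cells, was 7.68, 7.74, 7.81 and 7.32 at 6 months and 8.90, 8.42 and 8.26 at 18 months (0.89, SE 0.17). Neither gene's groups overlapped, and for both the 12-month mean (7.07 and 7.71) stood close to that of 6 months. Clec7a, the receptor dectin-1, was higher by 0.34 (SE 0.10), and Cd52, a small surface glycoprotein of leukocytes, by 0.44 (SE 0.14). In all, 8 of 41 activated microglia genes were higher and 0 lower, with a median of 0.17 and 36 positive. That count was 4 without 18-month F1 (median 0.11), 4 without 6-month F2 and 13, with 1 other lower, without 18-month M2. Of the 23 microglia identity genes, 2 were higher and 0 lower, namely Ctss, a lysosomal protease (0.31, SE 0.10), and Ly86 (0.35, SE 0.12), and the count was 0 without 18-month F1 and 6 without 18-month M2. The identity list had a median of 0.07 with 20 positive, and 0.01 without 18-month F1. Without 18-month M2 its median was 0.17, close to the 0.18 of the activated list in that fit. For the fractalkine receptor Cx3cr1, the purinergic receptor P2ry12 and Aif1 (Iba1), which mark microglia in general, the differences were 0.10 (SE 0.10), 0.09 (SE 0.13) and 0.07 (SE 0.09).

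Lysosomal genes had small positive differences. Of 38 measured, 37 were positive, with a median of 0.12, but only 3 were at p under 0.05. These were Ctss, Ctsl (0.24, SE 0.09) and Ctsc (0.22, SE 0.08), all cathepsin proteases, and Ctsc was not at p under 0.05 with the replicate block. The count was 0 without 18-month F1 (median 0.08), 1 without 6-month F2 and 8 without 18-month M2. Of 8 blood markers, 1 was higher, Ngp, and the median was -0.04; the list mean ran from 6.29 to 6.57 at 6 months and from 6.39 to 6.55 at 18 months. Of 18 immunoglobulin, T cell and B cell genes, 0 were higher or lower, and 2 were lower without 18-month M2.

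Interferon response genes had 4 of 46 higher and 0 lower, with a median of 0.04. Ifit3, an interferon-induced antiviral protein, was 7.70, 7.84, 7.84 and 7.76 at 6 months and 8.60, 7.99 and 8.13 at 18 months, where the female array was the highest (0.46, SE 0.14). Xaf1, Ddx58 (the RNA sensor RIG-I) and Ifitm2 were higher by 0.22, 0.21 and 0.24, with SE of 0.09, 0.08 and 0.10. With the replicate number as a block none of these 3 was at p under 0.05, and the count was then 2. It was 1 without 18-month F1, 6-month F2 or 6-month M2, and 2 with 3 others lower without 6-month F1. The median was -0.02 without 18-month F1 and 0.08 without 18-month M1. The sequence GAAANNGAA, the core of the interferon-stimulated response element, was found on either strand in 20 of the 40 promoters of list members (50%) against 8.56% of all 32851 promoters of the same length in the RefSeq table (GRCm38.p6, 250 bases before to 50 after the start). It was in 3 of 16 promoters (18.8%) of antigen presentation genes, of which 0 of 20 measured were higher or lower. The Ifit3 promoter is printed because it held 3 matches, shown in capitals. The stretch begins 195 bases before the annotated start, at chr19:34583334-34583458 on the plus strand.
Ifit3: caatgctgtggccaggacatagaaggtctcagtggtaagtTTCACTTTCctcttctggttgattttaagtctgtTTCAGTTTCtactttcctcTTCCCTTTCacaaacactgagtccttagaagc

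Myelin genes were the cell type list with the highest median change, at 0.21, with 37 of 38 positive, 11 higher and 0 lower. Anln, an actin-binding protein of the myelin septin scaffold, was 9.004, 8.85, 9.09 and 8.96 at 6 months and 9.56, 9.32 and 9.36 at 18 months (0.44, SE 0.09). Aspa, which cleaves N-acetylaspartate in oligodendrocytes, was 8.89, 8.62, 8.95 and 8.72 at 6 months and 9.57, 9.21 and 9.10 at 18 months (0.50, SE 0.13). Car2, a carbonic anhydrase, and Ermn, a cytoskeletal protein of mature oligodendrocytes, were higher by 0.37 (SE 0.09) and 0.39 (SE 0.10). None of these 4 overlapped between ages. The major structural genes had smaller differences, with Mbp at 0.16 (SE 0.10) and Mog at 0.22 (SE 0.12), and the mean of the whole list overlapped, since 6-month M1 (9.86) exceeded 18-month M2 (9.84). The count of 11 was 5 without 18-month F1, 7 without 6-month F2 and 19 without 6-month M1. Pmp22, a myelin protein best known from peripheral nerve and not in the list, was 10.51, 10.37, 10.55 and 10.41 at 6 months and 11, 10.79 and 10.85 at 18 months (0.41, SE 0.09).

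In the lists of precursors, of division and of newborn neurons, at most 2 genes each were lower. Gpr17, a receptor of oligodendrocyte precursors about to mature, was 8.41, 8.19, 8.23 and 8.28 at 6 months and 8.14, 8.01 and 8.04 at 18 months (-0.21, SE 0.08). It was the only 1 of 24 precursor genes at p under 0.05 and kept it in 2 of the 7 fits that left out 1 array, whereas 3 genes of the list were higher without 6-month F1 and 2 without either 18-month male. Of 37 cell cycle genes, 30 were negative with a median of -0.10, and 2 were lower, Ccnb2 (cyclin B2; -0.24, SE 0.08) and Ube2c (-0.27, SE 0.11). Of 32 genes of neurogenesis and newborn neurons, 2 were lower, Igfbpl1 (-0.34, SE 0.11) and Dlx2, a homeobox factor of striatal precursors (-0.23, SE 0.10), the latter not at p under 0.05 with the replicate block. The cell cycle count was 1 without 6-month F2, 0 without 18-month F1, 18-month M1 or 6-month M1, and 4 without 18-month M2. The neurogenesis count was 0 without 18-month F1 and 1 without 18-month M2 or 6-month F1. The precursor list as a whole had 11 positive and 13 negative genes with a median of -0.02. The neurogenesis list had 14 and 18 with a median of -0.01, so neither list moved as a whole.

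Immediate early genes, which neurons switch on within minutes of activity, had the lowest list median, with 10 of 32 lower. Fos was 7.81, 7.72, 7.61 and 7.52 at 6 months and 7.13, 7.21 and 7.22 at 18 months (-0.47, SE 0.09). Nr4a3, an orphan nuclear receptor, was 7.99, 8.17, 8.21 and 7.94 at 6 months and 7.66, 7.68 and 7.57 at 18 months (-0.44, SE 0.09). Egr2, a zinc finger factor, was 8.09, 8.48, 8.47 and 7.73 at 6 months and 7.33, 7.65 and 7.64 at 18 months (-0.65, SE 0.19), and 6-month M2 stood only just above the 18-month range. None of the 32 genes was higher, 27 were negative, and the median was -0.19. Fosl2 (-0.39), Egr1 (-0.33), Egr4 (-0.28), Fosb (-0.21), Arc (-0.42), Nr4a1 (-0.66) and Homer1 (-0.24) made up the rest of the 10. Of these, Nr4a1, Arc, Egr1, Fosb and Homer1 overlapped between ages, and Fosb and Homer1 were not at p under 0.05 with the replicate block. The count was 5 without 18-month F1 or 18-month M2 (1 gene being higher in the latter) and 4 without 6-month F2 or 6-month M1. Most of the difference was present at 12 months, when the list median was -0.16 relative to 6 months, while from 12 to 18 months it was -0.01. Mir212, a hairpin of an activity-regulated miRNA, was 8.18, 8.13, 8.11 and 8.12 at 6 months and 7.88, 7.92 and 8.04 at 18 months (-0.19, SE 0.08), a difference not at p under 0.05 with the block. The cyclic AMP response element TGACGTCA lay in 3 of 35 promoters of the list (8.57%, against 1.79% of all promoters) and in 0 of the 13 promoters of its lower members that the table holds.

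Among clock genes, some repressors and outputs were higher and 1 activator, Arntl, was lower. The other measured members, from a list with further repressors, outputs and activators, were not at p under 0.05. In the circadian clock, the activators BMAL1 (Arntl) and CLOCK bind E-boxes and switch on their own repressors and a set of output genes. Ciart, a repressor of the activators, was 8.86, 8.89, 9.16 and 8.56 at 6 months and 9.67, 9.86 and 9.46 at 18 months (0.80, SE 0.15). Bhlhe41, also a repressor, was 8.66, 8.45, 8.76 and 7.97 at 6 months and 9.29, 9.20 and 8.98 at 18 months (0.70, SE 0.19). Nr1d2 (REV-ERB beta) was 9.58, 9.60, 9.70 and 9.64 at 6 months and 9.95, 9.89 and 9.91 at 18 months (0.28, SE 0.07). In each of the 3, all 18-month arrays lay above all 6-month arrays. Bhlhe40 (0.45), Per3 (0.31), Dbp (0.37), Nr1d1 (0.29) and Per2 (0.28) were higher too, and among these 5 only Per2 overlapped. Arntl was the 1 gene lower, at 8.76, 8.97, 8.69 and 8.54 at 6 months against 8.55, 8.46 and 8.39 at 18 months, with overlap by 6-month M2 (-0.27, SE 0.11), and kept p under 0.05 in 2 of the 7 fits that left out 1 array. Thus 8 of 19 clock genes were higher and 1 lower, with a median of 0.14, and as for the immediate early genes the larger part was present at 12 months (median 0.12 from 6 to 12 and 0.05 from 12 to 18 months). Without 18-month M1 the count of higher was 5 and the median 0.05, and without 6-month M2 the median was 0.09. The methods place all mice at the same point of the light phase, but the hour for each mouse was not used here, and its part in these differences was not tested.

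The E-box CACGTG was found in 6 of 25 clock gene promoters (24%) against 7.15% of all promoters of that length. Ciart and Bhlhe41 were the members at p under 0.05 with a match, and their stretches are printed for the E-boxes, given in capitals. The Ciart stretch begins 156 bases before the start, at chr3:95882260-95882384, and that of Bhlhe41 begins 193 bases before the start, at chr6:145865528-145865613, both on the minus strand. Ciart held 3 matches and Bhlhe41 held 1.
Ciart: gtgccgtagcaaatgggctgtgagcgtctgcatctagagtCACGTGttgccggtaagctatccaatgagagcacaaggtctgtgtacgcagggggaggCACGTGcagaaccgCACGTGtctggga
Bhlhe41: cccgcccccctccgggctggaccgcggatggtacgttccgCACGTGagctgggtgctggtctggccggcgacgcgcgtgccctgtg

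**Figure D3:**
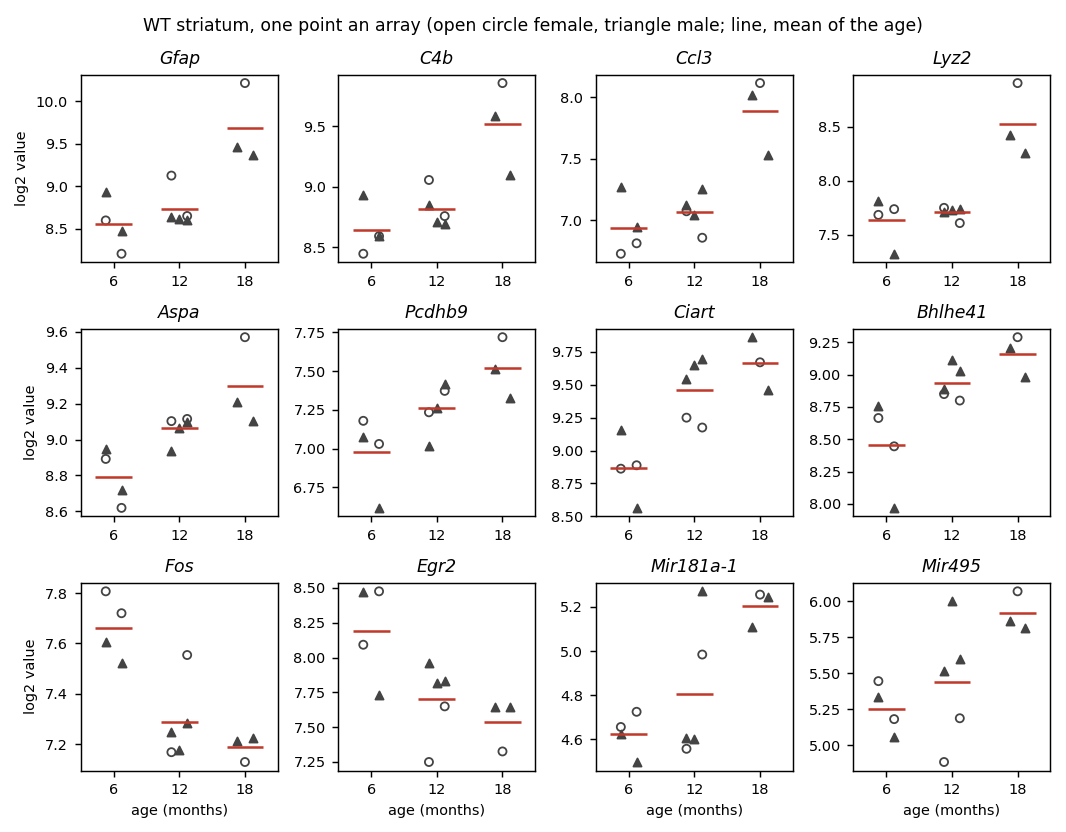
Log2 values of 12 genes in each WT array at 6, 12 and 18 months, with females as open circles, males as triangles and the mean of each age as a red line. Gfap, C4b, Ccl3 and Lyz2 were near their 6-month level at 12 months, whereas Ciart, Bhlhe41, Fos and Egr2 had moved most of the way by 12 months.

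Over all probesets, the 12-month mean lay between the other 2 means for 84.2% of the higher, 83.4% of the lower and 42.8% of all probesets. The higher and lower ones were selected for a gap between the 6-month and 18-month means. A 12-month mean falls inside such a gap more often even without a steady trend, so these shares do not show a gradual course. The steps of the lists are given as a description, since the same 12-month arrays enter both and no test compared them. The myelin median was 0.02 from 6 to 12 and 0.19 from 12 to 18 months, and that of activated microglia 0.02 and 0.13. For Osmr, Vim and Serpina3n the 12-month mean lay below that of 6 months.

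The markers that define the striatum were high in every array and showed no age difference at p under 0.05. Penk, the enkephalin precursor of the indirect pathway, lay between 13.02 and 13.38, Ppp1r1b (DARPP-32) between 11.62 and 12.24, Drd1 between 10.34 and 10.96 and Drd2 between 11.42 and 12.09. Tac1, the substance P precursor of the direct pathway, had a difference of 0.05 (SE 0.15). Of 35 medium spiny neuron genes, 32 were negative with a median of -0.09 and 0 were higher or lower. That sign depended on single arrays. The list mean was lowest in both M2 arrays, at 10.60 (6 months) and 10.57 (18 months) against 10.95 to 11.17 in the others, and the median was 0.04 without 18-month M2, when 1 gene was higher, and -0.20 without 6-month M2, when 2 were lower. Transcripts of neighbouring regions were high in both M2 arrays, and those of thalamus, septum and hypothalamus also in 6-month F1. Their part in the results was not tested. Slc17a7, the glutamate transporter of cortical neurons, was 11.52 in 6-month M2 against 7.99 to 9.44 in the other 6-month arrays, where Ttr, made by the choroid plexus, was 12.81 against 9.84 to 10.49. The 20 choroid plexus and ependyma genes had a list mean of 7.69 in that array against 7.13 to 7.29 in the other 6. In 18-month M2, Prkcd and Calb2, high in thalamus, were 10.11 and 10.14 against at most 9.27 and 8.97 in the other arrays of both ages. Over the 23 genes of thalamus, septum and hypothalamus, the list mean was 7.50 to 8.11 at 6 and 7.58 to 8.42 at 18 months, and over the 15 cortical genes 8.40 to 9.43 and 8.54 to 8.97. The 8.11 was that of 6-month F1, against 7.50 to 7.66 in the other 6-month arrays. In both lists the ages overlapped. At p under 0.05 stood Egr4 (lower) in the cortical list, an immediate early gene, and no gene of the other, which had 5 higher without 18-month M1. The cortical list had 4 higher and 1 lower without 6-month M2, with a median of 0.17 in place of -0.01. In a fit without both M2 arrays, chosen after the data were seen, the lists gave 12 higher and 1 lower for activated microglia, 9 and 0 for myelin, 5 and 0 for reactive astrocytes, 0 and 10 for immediate early, 7 and 1 for the clock and 15 and 0 for protocadherins. That fit kept 6-month F1.

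**Figure D4:**
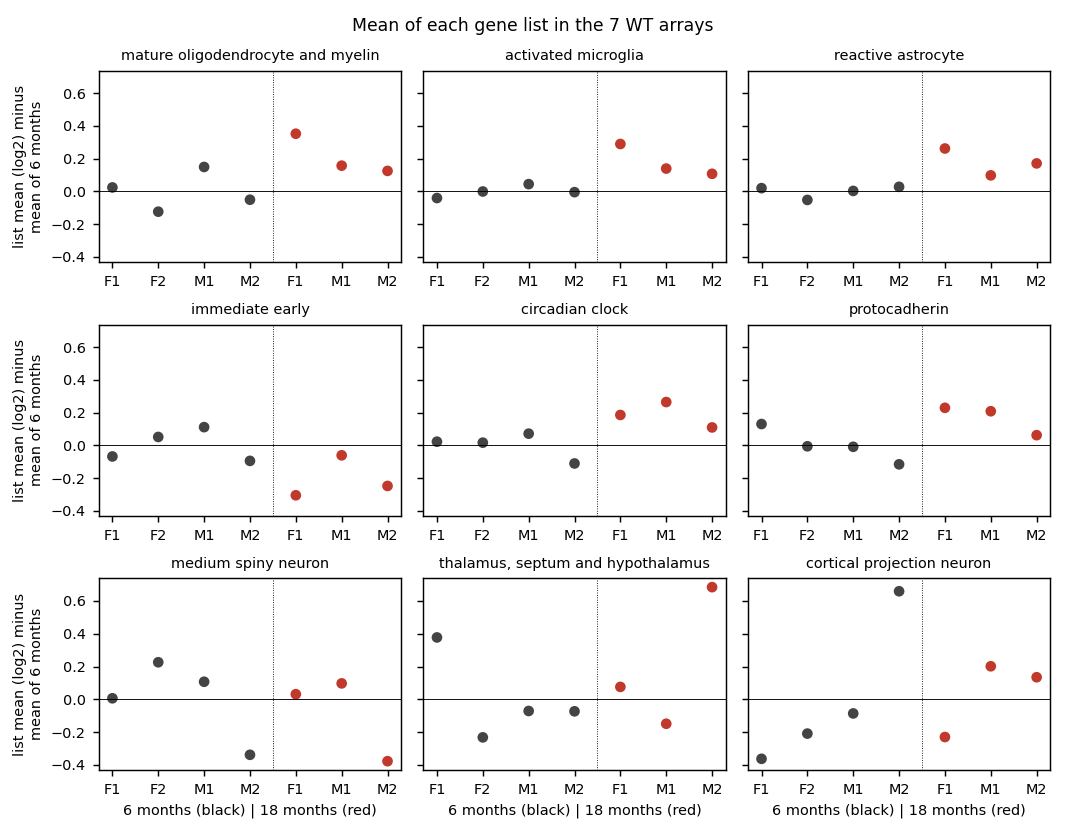
Mean log2 value of each of 9 gene lists in the 7 WT arrays, as the difference from the mean of the 6-month arrays (black, 6 months; red, 18 months). Activated microglia, reactive astrocyte and clock means do not overlap between ages, whereas the medium spiny neuron mean is lowest in the M2 array of each age.

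Of 72 synaptic genes, 0 were higher and 2 lower, with a median of -0.01, and without 6-month M2 the counts were 2 and 1. Gabra2, the alpha 2 subunit of the GABA-A receptor, was 10.61, 10.65, 10.57 and 10.19 at 6 months and 10.22, 10.09 and 9.93 at 18 months (-0.43, SE 0.13), with 6-month M2 inside the range of 18 months. The other was Homer1, a scaffold with an activity-induced short form, given above. Of 49 neurotransmitter and peptide receptors and 48 voltage-gated channels, 0 were higher or lower, with medians of -0.03 in both, and at most 3 of either list were in a fit that left out 1 array. In vessels, Slc2a1, the glucose transporter of the blood-brain barrier, was 10.93, 10.79, 10.88 and 10.80 at 6 months and 11.16, 11.09 and 11.01 at 18 months (0.24, SE 0.08). Tagln, an actin-binding protein of mural smooth muscle, was 7.29, 7.23, 7.26 and 7.31 at 6 months and 7.07, 7.09 and 6.93 at 18 months (-0.24, SE 0.08). These were the 2 of 35 endothelial and mural genes at p under 0.05, and neither overlapped. Without 18-month M2 there were 4. Timp3, an inhibitor of matrix proteases, and Ogn, a matrix proteoglycan, were higher by 0.28 (SE 0.09) and 0.40 (SE 0.15) among 49 extracellular matrix genes, whose median was -0.05.

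Several further pathway lists had no member at p under 0.05. They were oxidative phosphorylation (73 genes, 60 positive, median 0.05), the proteasome (31 genes, 28 positive, 0.07), cholesterol synthesis (20 genes, 18 positive, 0.09), heat shock (40 genes, 14 positive, -0.03) and the senescence and p53 list (22 genes, 8 positive, -0.02). Oxidative phosphorylation had 4 higher without 18-month M2 and cholesterol synthesis 3 without 6-month M2. Among 57 ribosomal protein genes, each read by its brightest probeset, the median was 0.06 and 1 was lower, Rpl7a (-0.35, SE 0.14), whose other probesets differed by 0.15 and 0.06. It was not at p under 0.05 with the replicate block, when 4 others were higher. Without 18-month M2 the list had 7 higher and 2 lower. Such genes share near-identical pseudogene copies. Cdkn2a, which encodes the senescence marker p16, had a difference of -0.18 (SE 0.13). Htt itself differed by 0.04 (SE 0.08).

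The list of protocadherins, drawn from the clustered genes and from others outside the clusters, had the highest list median, at 0.21. The clustered ones are adhesion proteins by which neurons tell their own branches from others. Of 33 genes, 11 were higher and 0 lower, and all 11 belong to the beta cluster, of which 22 genes were measured. The beta genes alone had a median of 0.25. Pcdhb15 was 8.46, 8.50, 8.41 and 8.38 at 6 months and 8.74, 8.80 and 8.71 at 18 months (0.31, SE 0.07). Pcdhb9 was 7.18, 7.03, 7.08 and 6.62 at 6 months and 7.72, 7.52 and 7.33 at 18 months (0.55, SE 0.15). Both separated the ages, and 8 of the 22 beta genes did so. The 12-month list median was 0.12 above that of 6 months. The genes of the cluster are neighbours with similar sequences, so their probesets may not be independent. The count was 5 without 18-month F1 or 6-month M2, 3 without 18-month M1 and 7 without 6-month F2 or when arrays were centred on their medians.

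Probesets over miRNA hairpins, a group looked at after the values had been seen, had 28 of 296 higher (9.46%) and 1 lower. These probesets read the hairpin or its primary transcript and not the mature miRNA. Their median was 0.04, and 0.0021 after quantile normalization, when 24 were higher and 5 lower. The median was 0.0053 without 18-month M2. Without 18-month F1 the count of higher was 13 and without 6-month F2 it was 18, while the count of lower was 5 without 18-month M2 and 10 without 6-month F1. Mir181a-1 was 4.66, 4.72, 4.62 and 4.50 at 6 months and 5.26, 5.11 and 5.25 at 18 months (0.58, SE 0.09). Its neighbour Mir181b-1 on chromosome 1 was 7.83, 7.52, 7.69 and 7.71 at 6 months and 8.16, 8.03 and 8.10 at 18 months (0.41, SE 0.09). In neither did the ages overlap. The second copy, Mir181a-2, differed by 0.04 (SE 0.15). Of the 6 measured hairpins with the miR-181 seed, 3 were higher and 4 positive, and of the 9 for which the sequence table holds an arm with the let-7 seed, 3 were higher and 8 positive. Mirlet7a-2, for which the table holds only the opposite arm, was higher as well (0.27, SE 0.10). Mirlet7d was 6.73, 6.92, 6.77 and 6.97 at 6 months and 7.22, 7.33 and 7.27 at 18 months (0.43, SE 0.09). Mir29a, of a family with targets among matrix genes, was 3.87, 4.004, 4.39 and 4.31 at 6 months and 5.38, 4.85 and 4.63 at 18 months (0.81, SE 0.20), a low level at which the fold is less certain. The same holds for Mir181a-1 (mean level 4.87) and for Mir495 (5.54, given below), which also lay among the dimmest 8690 probesets.

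Mature sequences from RefSeq (GRCm38.p6) show which of these hairpins can yield a miRNA with a common seed, bases 2 to 8, given in capitals. The first 2 share a seed, as do the 3 let-7 members and the last pair. Mir181a-1 lies at chr1:137966455-137966541, Mirlet7d at chr13:48536012-48536114 and Mir29a at chr6:31062660-31062747.
miR-181a-5p: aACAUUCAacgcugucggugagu
miR-181b-5p: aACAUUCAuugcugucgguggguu
let-7d-5p: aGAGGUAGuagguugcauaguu
let-7f-5p: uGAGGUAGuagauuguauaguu
let-7c-5p: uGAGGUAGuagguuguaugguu
miR-29a-3p: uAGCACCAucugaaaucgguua
miR-495-3p: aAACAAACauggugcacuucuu
miR-369-3p: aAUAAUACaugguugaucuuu
miR-379-3p: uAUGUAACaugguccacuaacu
miR-411-3p: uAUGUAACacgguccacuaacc

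Of the 27 higher hairpins with a position, 11 lay in the imprinted miRNA cluster of chromosome 12, among 39 measured hairpins within 500 kb of Mir495 (28.2%, median 0.17, 30 positive), and 16 lay among the other 219 (7.31%, median 0.03). The window was centred on Mir495, itself among the higher hairpins, after the values had been seen. The shares inside and outside it are therefore a description and no test of the cluster. The 11 fall between chr12:109594506-109743496. Mir495 (chr12:109718754-109718816) was 5.45, 5.18, 5.33 and 5.06 at 6 months and 6.07, 5.86 and 5.81 at 18 months (0.66, SE 0.12). Mir369 (chr12:109743418-109743496) was 7.38, 6.88, 6.85 and 6.69 at 6 months and 7.73, 7.93 and 7.54 at 18 months (0.78, SE 0.17). Both separated the ages, and 7 of the 39 hairpins did so upwards. For the long non-coding transcripts of the same region the differences were -0.02 (SE 0.08) for Meg3 and 0.11 (SE 0.16) for Rian, neither at p under 0.05. Hairpins of the cluster may be read from common transcripts and are not independent. With the replicate block Mir434 and Mir329, 2 of the 11, were not at p under 0.05.

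**Figure D5:**
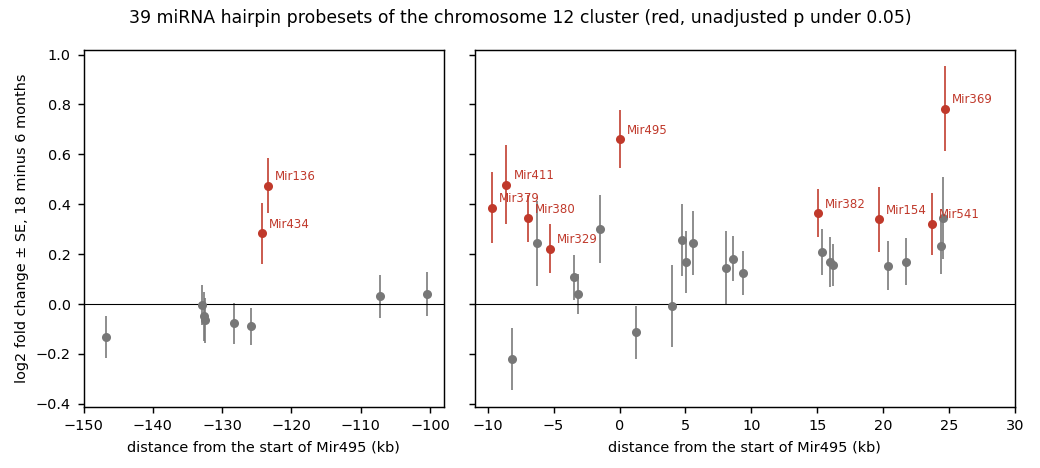
Log2 fold change (18 minus 6 months) with its SE for 39 miRNA hairpin probesets against their distance from the start of Mir495 in kb, in 2 panels that leave out a gap without measured hairpins. The 11 hairpins at an unadjusted p under 0.05 are named in red, and the highest of them is Mir369 at 0.78.

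Chemosensory receptors were numerous among the higher probesets. The olfactory family had 1027 genes measured, with 142 higher, 4 lower and a median of 0.07, and of 163 vomeronasal receptors 24 were higher and 1 lower with a median of 0.10. Their list means lay between 5.43 and 5.64 and between 4.79 and 4.98 over the 7 arrays, below the median of every array (7.42 to 7.52). After quantile normalization the counts were 93 higher and 15 lower, and 13 higher and 3 lower. Without 18-month F1 the olfactory count was 83. The 4 lower became 18 without 6-month F1, with a median of 0.04, and 12 without 18-month M2. The vomeronasal count was 14 without 6-month F2 and 15 without 6-month M1, and the median was 0.06 without 18-month M2. Receptors of these families share similar sequences, so single members are uncertain and none is named.

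The remaining genes with the smallest p and separate ages were of mixed function. Abca8a, a lipid transporter, was 7.81, 7.61, 7.87 and 7.79 at 6 months and 8.39, 8.33 and 8.17 at 18 months (0.52, SE 0.09). Irak3, a brake on Toll-like receptor signalling, was 7.74, 7.75, 7.82 and 7.66 at 6 months and 8.60, 8.40 and 8.08 at 18 months (0.62, SE 0.12). Klra3, a natural killer cell receptor, was 5.28, 5.35, 5.29 and 5.44 at 6 months and 5.63, 5.80 and 5.88 at 18 months (0.43, SE 0.09). These 3 kept p under 0.05 whichever array was left out. Tas2r109, a bitter taste receptor (0.42), Lrmda (0.38) and Skint11 (0.36) complete the higher side. On the lower side, B3gnt4, a glycosyltransferase, was 7.13, 7.32, 7.32 and 7.47 at 6 months and 6.89, 6.80 and 6.97 at 18 months (-0.43, SE 0.10). Il1f8 (-0.35), Elf5 (-0.28), Adamts18 (-0.40), Wfdc6a (-0.41), Fst (-0.25) and Prokr1 (-0.28) were others. For 4 more genes of that rank, 1 probeset was lower and the rest of the gene's probesets were not, so they are given as probesets and not as genes. A probeset of Rpl23a differed by -0.45, while the other 9 ran from -0.18 to 0.22. One of Hmgb2 differed by -0.43 (SE 0.09), while the other 3 differed by 0.02, -0.02 and 0.74 (SE 0.50). One of Dppa3 differed by -0.45, with the other at -0.0002, and 1 of Sympk by -0.42, with the brighter one at -0.03.

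In YAC128 mice, measured on separate arrays (4 at 6 and 5 at 18 months), 2523 probesets (7.26%) had p under 0.05 over the same span. Of the 1814 WT probesets, 77.4% had the same sign there, and no share over all probesets stands beside this value. At p under 0.05 in both genotypes were 357, or 19.7% of the WT ones, with 289 higher in both, 44 lower in both and 24 opposite. With no array run in the labels, age and array run cannot be told apart in either genotype. Gfap differed by 1.08 (SE 0.16), C4b by 0.82, Ccl3 by 0.93, Fos by -0.45 and Ciart by 0.58, and for these 5 genes the test of the difference between genotypes gave an adjusted p of 0.9999 by limma. Over all probesets the difference between genotypes in the change had p under 0.05 for 769 (2.21%), of which 0 passed at an adjusted p under 0.05 (smallest 0.9999 by limma).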

How the data were processed

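The authors computed log2 values by RMA (affy package) from GeneChip gene arrays, and the deposited table of these values for 34760 probesets was used as given; array medians ran from 7.42 to 7.52 in the 7 arrays. Genes were named through the platform annotation (21640 probesets with 1 symbol, 1321 with several, 11799 with none). Groups came from the sample labels. limma 3.58.1 in R 4.3.3 (lmFit, eBayes, 2-sided, Benjamini-Hochberg over all probesets) was fitted to the 4 arrays of 6 and 3 of 18 months, without covariates, and was tested on simulated data. The difference between genotypes was an interaction contrast. The number of arrays limits the precision, and p-values measure the spread between these mice only. Members and gene lists were chosen with earlier results of these data known. Named genes were the 15 of smallest p in each direction whose groups did not overlap, and up to 4 members of each list; the miRNA hairpins, further list members and Mbp, Mog, Cx3cr1, P2ry12, Aif1, Meg3, Rian and Mir181a-2 were added after their values were seen. The labels number mice F1, M1 and M2 at both ages. Over these arrays, deviations from the mean of each age correlated at 0.265, 0.151 and 0.417 for equally numbered mice. A fit with that number as a block was an alternative. It left out 6-month F2, which has no equal at 18 months, so its differences from the main fit are not due to the block alone. Unequally numbered mice correlated at -0.333 to 0.130, the latter for 6-month F1 with 18-month M1. Deviations within an age cancel out, so positive values for equal numbers by themselves push the others down, and the contrast is no test. No label says what equal numbers share, so they do not establish a pairing. Promoters (250 bases before to 50 after each start) and miRNAs are those of RefSeq, GRCm38.p6; 271 of 296 hairpins matched.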

Additional observations from a re-analysis of the deposited data

Results flagged for a closer look

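For 52 genes and 9 gene lists named in the text, the arrays of each WT group of 4 or 5 mice were searched for 1 value far from the others, which chance gives in about 1 in 20 groups. Of 122 groups, 6 held such a value. Gfap was 9.12 in the 12-month array F1 against 8.61 to 8.65 in the other 4. Lyz2 was 7.61 in 12-month F2 against 7.71 to 7.75. Aspa was 8.94 in 12-month M1 against 9.07 to 9.12, and B3gnt4 was 6.86 in 12-month M3 against 7.16 to 7.28. Gabra2 was 10.19 in 6-month M2 against 10.57 to 10.65 in the other 6-month arrays, and 10.65 in 12-month M2 against 10.53 to 10.56.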

How the results depend on the processing

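The counts moved with the processing, and so did the balance of directions. The share of higher among probesets at p under 0.05 was 73.1% as reported and 53.8% after quantile normalization. Of 37 list medians, 15 changed sign at least once when 1 array was left out. The 1814 probesets at p under 0.05 became 2996 with all 26 arrays in the fit, 4527 with array weights, 713 over probesets above the median level, 921 with 1 probeset a gene and 2972 without both M2 arrays, a choice made after the data were seen. Leaving out 1 array gave 1192 (without 18-month F1) to 2904 (without 6-month F1), with 2744 without 18-month M2. The 1326 higher became 518 above the median level, 2704 with array weights and 622 with 1 probeset a gene, and ran from 898 to 1760 when 1 array was left out. The 488 lower became 1044 with all 26 arrays, 777 with the 12 WT arrays, 752 with sex as a covariate, 922 after quantile normalization, 195 above the median level, 1823 with array weights, 299 with 1 probeset a gene and 1067 without both M2 arrays. They ran from 294 (without 18-month F1) to 1220 (without 6-month F1), with 984 without 18-month M2, 298 without 6-month F2 and 319 without 6-month M1. With the replicate number as a block (pairing F1, M1 and M2, without 6-month F2) the lower probesets numbered 909 and all probesets at p under 0.05 numbered 2536. Without 6-month F2 and with no block, these were 298 and 1238. At an adjusted p under 0.05 the count was 0 except with all 26 arrays, where it was 6. The difference between genotypes, at 769, became 1312 with sex as a covariate, 237 above the median level and 1374 with the replicate block, and ran from 697 to 1304 (without 18-month M2) when 1 array was left out. The block fit kept only arrays numbered F1, M1 and M2 of each group. Among named genes, the block fit took 19 to the other side of the threshold as lost and 9 as gained. Leaving out 6-month F2 without a block lost 32. The males-only fit (2 against 2 mice) lost 70. Why the counts moved was not tested.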
